A study of Homo sapiens with 6 samples.

Results

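The 31 zinc finger genes described here lie around band 19q13.12 on the long arm of human chromosome 19, and they were chosen from a fixed list of symbols, each represented by its probe set with the highest mean signal over the 6 arrays among those annotated to that symbol alone. Of the 31 genes, 28 had such a probe set, out of 19775 genes measured in all. ZNF181, ZNF260 and ZNF790 had none and were not analysed here. The samples were ARPE-19 cells, a line that was established from human retinal pigment epithelium. Of the 6 arrays, 3 came from cells given SRPIN803 at 10 µM and 3 from cells given its solvent, DMSO at 0.1%, each for 4 h in medium with 10% serum. SRPIN803 inhibits protein kinase CK2 and SRPK1, which phosphorylates splicing factors of the SR family, as is known from earlier work. The labels name no genetic change in either group, and whether replicates came from different cultures is not stated in them, so the p-values below measure only the spread between these arrays, which may be technical.

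Most of these genes encode KRAB zinc finger proteins. In this family a tandem array of C2H2 zinc fingers binds DNA, and the KRAB domain recruits the corepressor TRIM28 (KAP1), which brings in the histone methyltransferase SETDB1 and heterochromatin proteins to silence the bound sequence. Many members bind transposable elements, and the genes stand in tandem clusters formed by repeated duplication, chiefly on chromosome 19. Not every member carries a KRAB domain: the proteins of ZNF146 and ZNF260, for example, consist of zinc fingers without one.

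The cells were checked against cell type markers. Of 13 markers of retinal pigment epithelium, 6 had a signal at or above the median level of all genes, 6.53 on the log2 scale. They included the transcription factor genes MITF (10.2) and OTX2 (10.5) and the keratin genes KRT8 (12.1) and KRT18 (13.8). The visual cycle genes RPE65 (2.33) and LRAT (2.83) and the pigment gene TYRP1 (3.21) were below it, so these defining markers were at most dimly detected. MITF was the 1 of the 13 that was called, at 0.35 ± 0.07 (log2 change ± SE, limma's adjusted p = 0.0312). All 4 endothelial, all 4 blood cell and all 3 neural retina markers lay below the median level, with 0 called, and of 6 fibroblast or mesenchyme markers 4 lay above it, with 0 called. As a measure of RNA quality, the 5′ minus 3′ signal of the actin controls ran from -2.16 to -1.46 on the log2 scale in SRPIN803 and from -1.99 to -1.41 in DMSO, so the groups overlapped. Pearson's r across probe sets ran from 0.9957 (SRPIN803 replicates 1 and 2) to 0.9969 within SRPIN803, and from 0.9972 to 0.9977 within DMSO. Between groups it ran from 0.9940 (SRPIN803 replicate 2 with DMSO replicate 2) to 0.9961 (SRPIN803 replicate 3 with DMSO replicate 3). The SRPIN803 range and the range between groups thus overlapped.

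After SRPIN803, 4 of the 28 zinc finger genes of 19q13.12 rose and 0 fell (limma, Benjamini-Hochberg adjusted p under 0.05 over all 19775 genes). The samples were bulk RNA of a cell line, so a rise in every cell and a rise in some of the cells cannot be told apart. The 4 were ZNF420, ZNF585B, ZNF302 and ZNF30, with folds between 1.26 and 1.36. These 4 make 14.3% of the zinc finger genes, where the background over all genes was 3.46% called higher and 2.37% called lower (5.84% together). The list was chosen with earlier results of these data known, so this contrast is a description and not an independent test. The median log2 change of the 28 genes was 0.11, against 0.02 over all genes, and 20 of the 28 changes were above 0 (71.4%, against 56.1% of all genes). In 13 of the 28 genes (46.4%) every SRPIN803 array lay above every DMSO array, which held for 15.2% of all genes, and in 0 of the 28 did every SRPIN803 array lie below every DMSO array, which held for 10.4% of all genes.

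**Figure D1:**
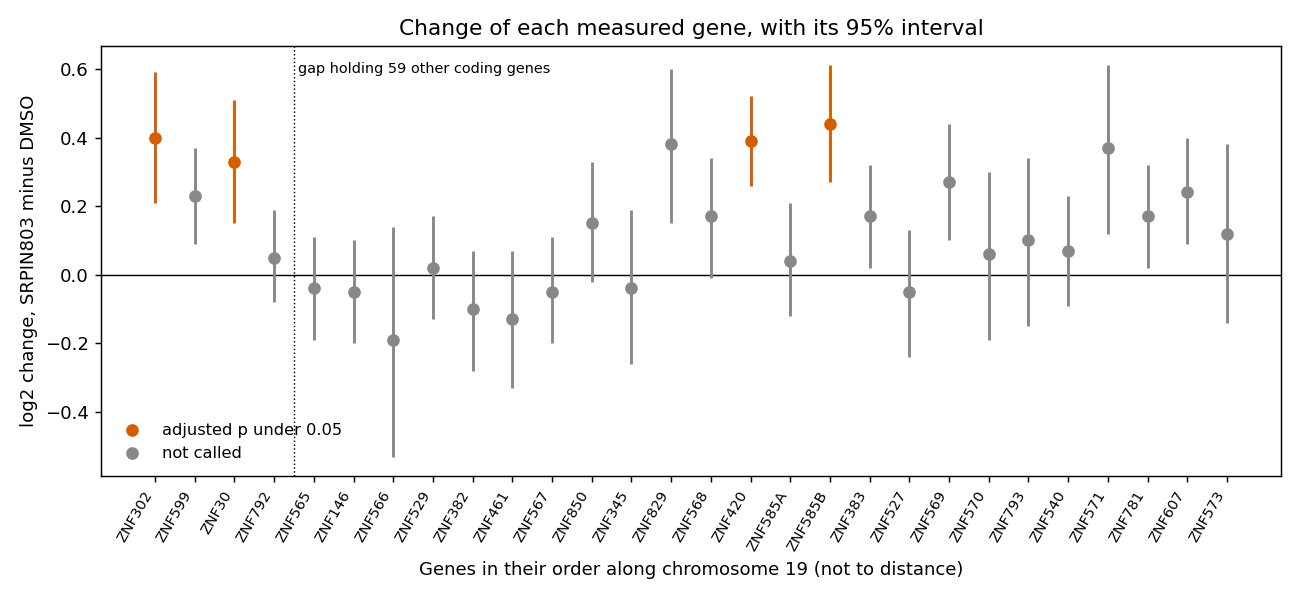
Log2 change (SRPIN803 minus DMSO, y axis) of the 28 measured zinc finger genes in their order along chromosome 19 (x axis), with points for the estimates and lines for limma's 95% confidence intervals; orange marks genes called at an adjusted p under 0.05. The 4 called genes lie between 0.33 and 0.44, and the lowest estimate is that of ZNF566 at -0.19.

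ZNF420, also known as APAK, encodes a KRAB zinc finger protein known to restrain p53 activity. Its level was 8.22, 8.28 and 8.32 on the 3 SRPIN803 arrays and 7.88, 7.88 and 7.90 on the 3 DMSO arrays (log2). The groups lay apart, and the change of 0.39 ± 0.06, a fold of 1.31 (95% interval 1.19 to 1.43), was large against the spread within groups (SD 0.05 in SRPIN803 and 0.01 in DMSO, adjusted p = 0.0106). ZNF585B had 7.39, 7.56 and 7.51 in SRPIN803 and 6.99, 7.14 and 7.01 in DMSO. Every SRPIN803 array was above every DMSO array, at a change of 0.44 ± 0.07 or 1.36-fold (1.21 to 1.53, adjusted p = 0.0173).

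ZNF302, the first gene of the interval, had 8.99, 9.05 and 9.14 in SRPIN803 and 8.52, 8.76 and 8.70 in DMSO. These groups did not overlap either, with DMSO replicate 1 lowest, and the change was 0.40 ± 0.08 or 1.32-fold (1.16 to 1.50, adjusted p = 0.0311). For ZNF30 the values were 6.60, 6.68 and 6.61 in SRPIN803 and 6.37, 6.15 and 6.37 in DMSO. DMSO replicate 2 was the lowest of them, and the change of 0.33 ± 0.08 or 1.26-fold (1.11 to 1.42) was just past the threshold (adjusted p = 0.0486). The calls were close to that threshold throughout. ZNF420 lost its call without DMSO replicate 3 (adjusted p = 0.0536), and ZNF585B lost it without SRPIN803 replicate 2 or 3 or DMSO replicate 1 or 3 (adjusted p up to 0.0818). ZNF302 (0.0581 to 0.101) and ZNF30 (0.0868 to 0.123) lost theirs with any 1 of the 6 arrays left out, while the log2 changes of the 4 genes stayed between 0.26 and 0.49 in these fits.

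The promoters of ZNF302, ZNF420 and ZNF585B are shown because these genes were called higher together, and that of ZNF585A because its gene is the closely similar neighbour of ZNF585B. Each is a RefSeq window on GRCh38.p14 from 250 bases before to 50 after an annotated start, written 5′ to 3′ on the gene's strand: chr19:34677428-34677727 (plus strand) for ZNF302, chr19:37078183-37078482 (plus) for ZNF420, chr19:37210487-37210786 (minus) for ZNF585B and chr19:37172646-37172945 (minus) for ZNF585A. Of the windows listed for ZNF420 and ZNF585A, 2 each, the one with more matched bases was taken. Capitals mark matches, on either strand, to the words CCGGAAG (an ETS-type word), AAGATGGCG (YY1 type), CCAAT and GGGCGG (SP type), to the palindromic NRF1 word, and to ACTACATTTCCC.
ZNF302: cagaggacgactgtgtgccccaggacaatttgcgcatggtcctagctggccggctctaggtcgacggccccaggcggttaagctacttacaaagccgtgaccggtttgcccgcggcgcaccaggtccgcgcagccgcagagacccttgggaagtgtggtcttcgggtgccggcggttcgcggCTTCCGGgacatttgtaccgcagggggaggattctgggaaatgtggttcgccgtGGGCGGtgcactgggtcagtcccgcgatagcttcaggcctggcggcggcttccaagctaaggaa
ZNF420: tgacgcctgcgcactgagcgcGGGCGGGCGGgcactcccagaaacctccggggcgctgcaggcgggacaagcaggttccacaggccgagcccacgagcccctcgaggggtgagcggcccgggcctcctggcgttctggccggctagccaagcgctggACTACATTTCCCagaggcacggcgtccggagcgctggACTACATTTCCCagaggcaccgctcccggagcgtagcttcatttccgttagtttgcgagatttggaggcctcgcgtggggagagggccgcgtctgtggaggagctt
ZNF585B: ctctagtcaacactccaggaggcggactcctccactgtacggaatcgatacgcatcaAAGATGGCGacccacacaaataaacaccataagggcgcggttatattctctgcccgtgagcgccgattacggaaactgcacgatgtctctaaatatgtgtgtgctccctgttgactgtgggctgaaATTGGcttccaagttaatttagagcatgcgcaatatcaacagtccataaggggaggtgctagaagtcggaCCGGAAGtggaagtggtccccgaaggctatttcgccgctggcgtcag
ZNF585A: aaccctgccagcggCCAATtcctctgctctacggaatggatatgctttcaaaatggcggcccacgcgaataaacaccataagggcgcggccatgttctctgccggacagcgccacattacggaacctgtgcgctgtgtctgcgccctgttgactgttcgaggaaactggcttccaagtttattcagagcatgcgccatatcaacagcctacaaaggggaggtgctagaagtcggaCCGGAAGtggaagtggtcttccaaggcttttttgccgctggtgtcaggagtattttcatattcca

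The ZNF302 window held CCGGAAG and GGGCGG, and the ZNF585B window held CCGGAAG, AAGATGGCG and CCAAT. The ZNF585A window also held CCGGAAG and CCAAT, and it had 73.4% identity to the ZNF585B window in a global alignment (237 identical bases). The first of these words stood among like bases in both windows. The matches to the second lay on opposite strands and at different places, so they were not a shared site. In the ZNF420 window GGGCGG, in overlapping copies, was joined by 2 copies of ACTACATTTCCC, a word close to the known sites of ZNF143 and THAP11. That word was chosen as the 12-base word found in the largest number of the 44 windows listed for these genes, so its frequency in them is a description. It was in 11 of the 44 windows (25%), against 0.384% of all 35116 windows. Counted per gene, it was in 11 of 28 genes with a window (ZNF30, ZNF571 and ZNF781 are not among them), or 39.3%, against 6.13% of the other ZNF genes of chromosome 19, 3.63% of ZNF genes on other chromosomes and 0.472% of all genes in the table. The matches are letters in a window and not measured sites, and windows of divergent or alternative starts share bases.

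Of the listed words, CCGGAAG was in 25% of the 44 windows (10.3% of all), the NRF1 word in 6.82% (1.24%), AAGATGGCG in 4.55% (1.75%), CCAAT in 22.7% (34.6%) and GGGCGG in 45.5% (45%). The windows held a median of 22.5 CpG dinucleotides (9 to 35), against 14.0 over all windows. The 9 measured genes with ACTACATTTCCC (ZNF146, ZNF420, ZNF540, ZNF567, ZNF568, ZNF569, ZNF573, ZNF829 and ZNF850) had a median log2 change of 0.15, with 1 called higher, and the 16 measured genes with a window but without the word had 0.04, with 2 called higher. This difference was not tested, and it depends on the probe sets. On probe sets not ending in _x_at or _s_at (described below), ZNF420 went from 0.39 to 0.07, ZNF829 from 0.38 to 0.02 and ZNF569 from 0.27 to -0.17. Among genes without the word, ZNF302 went from 0.40 to 0.08 and ZNF345 from -0.04 to 0.31. Splits by the listed words also gave differences, in both directions and likewise not tested. Median log2 changes with and without the word were 0.12 and 0.07 for the ETS-type word and 0.30 and 0.06 for the YY1-type word. For the SP-type word they were 0.05 and 0.16, for the NRF1 word 0.07 and 0.08, and for the remaining listed word 0.10 and 0.07.

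Beyond the called genes, another 9 had SRPIN803 arrays that all lay above the DMSO arrays. ZNF829 had 6.47, 6.34 and 6.16 in SRPIN803 and 6.05, 5.96 and 5.82 in DMSO, a log2 change of 0.38 ± 0.10 that was not called (adjusted p = 0.0659). ZNF569 had 6.60, 6.72 and 6.60 in SRPIN803 and 6.46, 6.27 and 6.39 in DMSO, at 0.27 ± 0.07 (adjusted p = 0.0770). The separation between groups was narrow in both genes, with gaps no wider than the range of the arrays within DMSO. ZNF599 had 7.74, 7.86 and 7.83 in SRPIN803 and 7.62, 7.52 and 7.59 in DMSO, at 0.23 ± 0.06 (adjusted p = 0.0784). ZNF607 had 5.54, 5.42 and 5.46 in SRPIN803 and 5.13, 5.28 and 5.28 in DMSO, at 0.24 ± 0.07 (adjusted p = 0.0857). None of these 4 passed, and ZNF571 (0.37 ± 0.10, adjusted p = 0.0911) fell short as well. At an adjusted p under 0.10 these 5 joined the called genes, making 9 of 28 higher and 0 lower (6.09% of all genes were higher at that threshold). ZNF383 (0.17 ± 0.06), ZNF781 (0.17 ± 0.07), ZNF568 (0.17 ± 0.08) and ZNF850 (0.15 ± 0.08) had smaller differences, with adjusted p from 0.187 to 0.329. In mouse the counterpart of ZNF568 is known to silence a placental transcript of the growth factor gene Igf2.

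**Figure D2:**
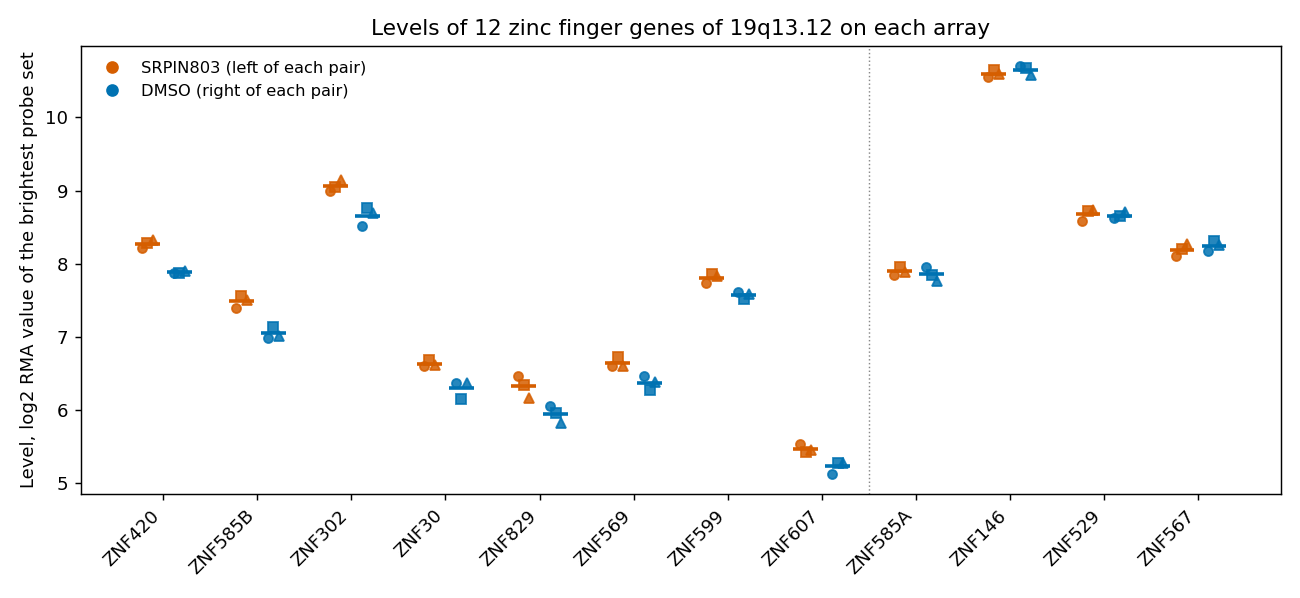
Levels (log2 RMA values of the brightest probe set, y axis) of 12 zinc finger genes (x axis), with 1 symbol per array (circle, square and triangle for replicates 1, 2 and 3), SRPIN803 in orange at the left and DMSO in blue at the right of each gene, and lines for group means. In the 8 genes left of the dotted line, those with the smallest p, every SRPIN803 array is above every DMSO array, and in the 4 on the right the groups overlap.

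Other members showed no difference past their spread on their brightest probe sets. ZNF146 had 10.56, 10.65 and 10.59 in SRPIN803 and 10.70, 10.68 and 10.58 in DMSO. The groups overlapped, and the change of -0.05 ± 0.06 had a 95% interval from -0.20 to 0.10 (adjusted p = 0.738). ZNF529 had 8.58, 8.72 and 8.73 in SRPIN803 and 8.62, 8.65 and 8.71 in DMSO (0.02 ± 0.07, interval -0.13 to 0.17). ZNF567 had 8.11, 8.20 and 8.27 in SRPIN803 and 8.18, 8.31 and 8.25 in DMSO (-0.05 ± 0.07, interval -0.20 to 0.11). Neither gene separated the groups on these probe sets. A dimmer probe set of ZNF529, at a level of 6.97, was at 0.34 ± 0.13 (interval 0.04 to 0.65). Its groups overlapped and it was not called (limma's adjusted p = 0.238 over all probe sets).

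The 8 members with a log2 change below 0 were all short of the threshold. Among them ZNF566 was at -0.19 ± 0.14, a value that came mainly from SRPIN803 replicate 2 (6.05, against 6.64 and 6.52 on the other SRPIN803 arrays and 6.53 to 6.66 in DMSO), and it was -0.02 without that array. ZNF461, also known as GIOT1, a repressor named in rat for its induction by gonadotropin, was at -0.13 ± 0.09. ZNF382, a KRAB repressor known as a tumour suppressor candidate, was at -0.10 ± 0.08. ZNF527 (-0.05 ± 0.08), ZNF565 (-0.04 ± 0.06) and ZNF345 (-0.04 ± 0.10) were closer to 0. The remaining 6 members, all above 0 and not called, were ZNF573 (0.12 ± 0.11), ZNF793 (0.10 ± 0.11), ZNF540 (0.07 ± 0.07), ZNF570 (0.06 ± 0.11), ZNF792 (0.05 ± 0.06) and ZNF585A (0.04 ± 0.07).

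Signals were modest in most of these genes. On the brightest probe sets, 10 of the 28 lay at or above the median level of all genes, 3 of them called higher (30%, against 4.89% of all genes at that level), and 18 lay below it, 1 of them called higher (ZNF30, 5.56%, against 2.03% of all genes below it). In the fit on the 9888 genes at or above the median level alone, 4 of the 10 were called higher (11.2% of all genes in that fit). ZNF599 was the fourth beside ZNF420, ZNF585B and ZNF302, with adjusted p = 0.0188, and ZNF30 was not in that fit.

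Along the chromosome the genes form 2 stretches. The first holds ZNF302, ZNF181, ZNF599, ZNF30 and ZNF792, and 59 other coding genes separate it from the second, which runs from ZNF565 to ZNF573. In the first stretch 2 of 4 measured genes were called higher, with a median log2 change of 0.28, and in the second 2 of 24 (8.33%), with a median of 0.08, where 3.46% of all genes were called higher. Both calls of the first stretch, ZNF302 and ZNF30, were lost with any 1 array left out, and the difference between the stretches was not tested. The measured members from ZNF565 to ZNF567 (ZNF565, ZNF146, ZNF566, ZNF529, ZNF382, ZNF461 and ZNF567) had changes between -0.19 and 0.02, with 0 called. With 5.84% of all genes called, so few genes would often hold 0 calls. This run was marked off by its values and was not tested. ZNF260, not measured, and 2 other coding genes lie within it. Several genes stand head to head with nearby starts. The pairs ZNF565 and ZNF146 (starts 22 bases apart, changes -0.04 and -0.05), ZNF529 and ZNF382 (56 bases, 0.02 and -0.10) and ZNF461 and ZNF567 (97 bases, -0.13 and -0.05) had small changes in both genes. Their members were therefore bound to lie close together, which says nothing about the pairs. In ZNF829 and ZNF568 (41 bases) the changes were 0.38 and 0.17, and in ZNF569 and ZNF570 (328 bases) they were 0.27 and 0.06. The difference within a pair was not tested.

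The probe set behind each value mattered. Affymetrix marks probe sets whose probes all match several transcripts with _s_at, and those in which some probes match unrelated or closely similar sequences with _x_at. Of the 28 brightest probe sets, 3 ended in _s_at (ZNF302, ZNF420 and ZNF569) and 2 in _x_at (ZNF345 and ZNF829), so 2 of the 4 calls came from probe sets that can bind transcripts of related genes. The other probe set of ZNF420 had 7.63, 7.25 and 7.80 in SRPIN803 and 7.44, 7.57 and 7.46 in DMSO, at 0.07 ± 0.13. It did not separate the groups, with SRPIN803 replicate 2 lowest of all arrays (0.22 without that array). For ZNF302 the other 2 probe sets were at 0.08 ± 0.09 and 0.18 ± 0.09, below the 0.40 of its _s_at probe set of highest signal. The other probe set of ZNF585B, at a low level of 3.08, was at 0.05 ± 0.14. On the mean of its probe sets ZNF585B was at 0.25 and not called (limma's adjusted p = 0.188). With the brightest probe set not ending in _x_at or _s_at, 2 of the 28 genes were called higher (2.94% of all genes), ZNF585B and ZNF345.

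**Figure D3:**
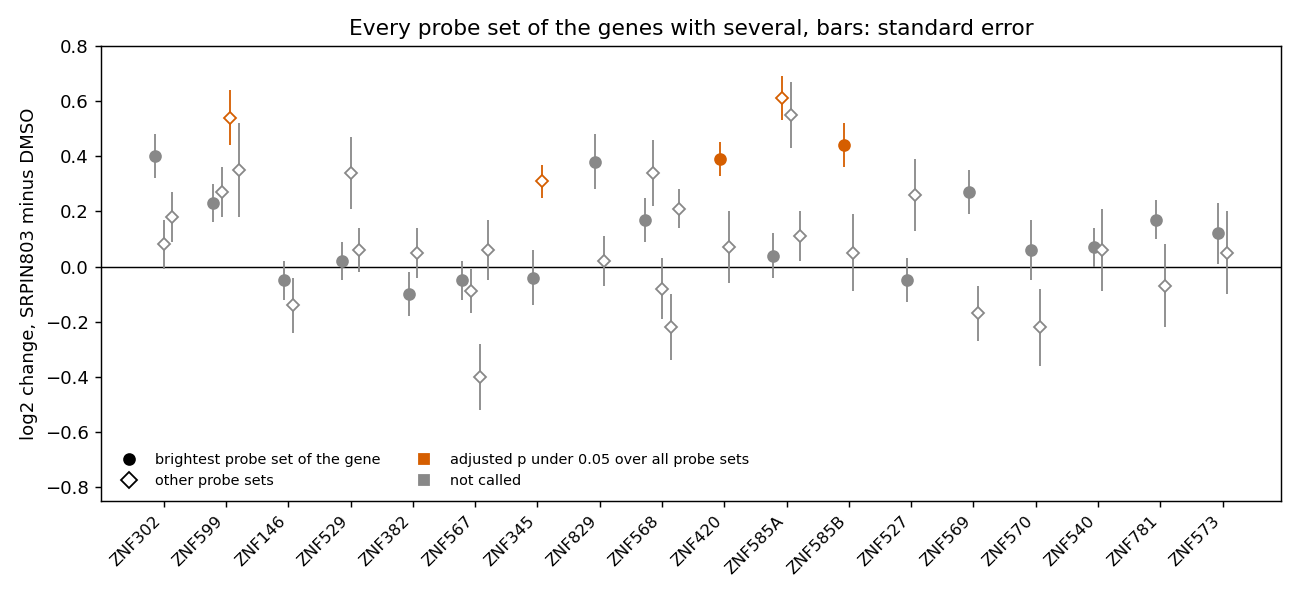
Log2 change (SRPIN803 minus DMSO, y axis) of every probe set of the 18 zinc finger genes with more than 1 (x axis), with bars for limma's standard error; filled circles are the brightest probe set of each gene, open diamonds the others, and orange marks an adjusted p under 0.05 over all probe sets. The brightest probe set of ZNF585A lies at 0.04, and 2 others of the gene lie at 0.61 and 0.55.

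ZNF585A and ZNF585B are neighbours in the second stretch and closely similar copies, and their probe sets gave different readings. The brightest probe set of ZNF585A had 7.84, 7.96 and 7.89 in SRPIN803 and 7.96, 7.84 and 7.76 in DMSO, with overlapping groups and a change of 0.04 ± 0.08 in the fit on all probe sets. The second one had 6.57, 6.60 and 6.65 in SRPIN803 and 5.96, 5.91 and 6.12 in DMSO. There the groups lay well apart, at 0.61 ± 0.08 (adjusted p = 0.00964, over 41091 probe sets), and the call held in 5 of 6 fits that each left an array out, all but that without DMSO replicate 2 (adjusted p = 0.0524). The third had 6.01, 6.18 and 6.21 in SRPIN803 and 5.32, 5.77 and 5.68 in DMSO, also without overlap, at 0.55 ± 0.12 (adjusted p = 0.0634). The fourth, at a level of 3.04, was at 0.11 ± 0.09.

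Whether the probe sets of a gene changed unequally was tested with limma's diffSplice, which was added after the data had been seen. It used 4882 genes with at least 2 probe sets at or above a level of 5.71 and not ending in _x_at, of which 2.99% were called (Simes test, adjusted p under 0.05). Of 7 zinc finger genes tested, ZNF585A was the 1 called (adjusted p = 0.0294). Its probe set of highest signal differed from the others by -0.53 (adjusted p = 0.0293). The call of ZNF585A was lost in all 6 fits with 1 array left out (adjusted p 0.0523 to 0.172). ZNF302 (0.328), ZNF529 (0.329) and ZNF420 (0.333) did not pass. Which transcripts each probe set binds was not tested here.

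Taken over all their probe sets, the 28 genes had 57, of which 5 were called higher and 0 lower. Of the 41091 probe sets naming 1 gene, 3.04% were called and 1.64% were called higher. Beside those of ZNF420, ZNF585B and ZNF585A, the 5 were a dimmer probe set of ZNF599 (0.54 ± 0.10, adjusted p = 0.0327) and the second of ZNF345 (0.31 ± 0.06, adjusted p = 0.0479). With single arrays left out, the probe sets of ZNF420, ZNF585B and ZNF599 were called in 1 of 6 fits each and that of ZNF345 in 0 of 6 (adjusted p up to 0.185). The ZNF345 probe set had 5.36, 5.27 and 5.34 in SRPIN803 and 5.06, 5.00 and 4.98 in DMSO, while the _x_at probe set of ZNF345 overlapped between groups. All 4 probe sets of ZNF599 were above 0, from 0.23 to 0.54. In 8 of the 18 genes with several probe sets their changes had both signs. The lowest single value was that of a dim probe set of ZNF567, at -0.40 ± 0.12 (adjusted p = 0.148).

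The zinc finger genes of 19q13.12 were then set beside other genes. Among 192 other ZNF genes of chromosome 19, 27 rose (14.1%) and 2 fell (1.04%), with a median log2 change of 0.09, close to the 14.3% and 0.11 of the 28 genes. Among 246 ZNF genes of other chromosomes, 13 rose (5.28%) and 8 fell (3.25%), with a median of 0.02. Every SRPIN803 array lay above every DMSO array in 38.0% of the 192 genes and 19.1% of the 246, against 46.4% of the 28. Changes above 0 made 70.3% of the 192 and 55.3% of the 246, against 71.4% of the 28. The 6 called genes with the largest changes on the rest of chromosome 19 were ZNF844 (1.77 ± 0.17), ZNF682 (1.24 ± 0.07), ZNF44 (1.07 ± 0.12), ZNF788P (1.05 ± 0.09), ZNF709 (1.04 ± 0.09) and ZNF627 (1.01 ± 0.06), with adjusted p up to 0.00448. Within 19q13.12 the highest change on a brightest probe set was the 0.44 ± 0.07 of ZNF585B, and dimmer probe sets there reached 0.61. The values for ZNF44 and ZNF627 came from an _x_at and an _s_at probe set, and without such probe sets they were 0.07 and 0.12 and not called (adjusted p = 0.784 and 0.742). On the mean over each gene's probe sets ZNF844 was at 0.98, ZNF44 at 0.57, ZNF709 at 0.46 and ZNF627 at 0.57, all still called (adjusted p up to 0.0137). These differences between lists were not tested.

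The other coding genes of the interval were called at 1.69%, against 5.84% of all genes. This list was defined by position alone, so it may hold zinc finger genes that are no members. Of its 59 measured genes, 0 were called higher (3.46% of all genes) and 1 lower (2.37% of all genes). The gene called was PROSER3 at -0.36 ± 0.07 (limma's adjusted p = 0.0332), on a probe set ending in _x_at. The 59 genes had a median log2 change of 0.01, against 0.02 over all genes. In 4 of them (6.78%, against 15.2% of all genes) every SRPIN803 array lay above every DMSO array. In 3 (5.08%, against 10.4%) every SRPIN803 array lay below. Leaving out single arrays ended the call of PROSER3 in 5 of 6 cases, all but that of SRPIN803 replicate 3 (adjusted p up to 0.131).

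A broad list of genes for corepressors and silencing factors was also measured, not all of them known to act with KRAB zinc finger proteins. Of 42 corepressor and silencing genes, 1 rose (2.38%, against 3.46% of all genes) and 3 fell (7.14%, against 2.37%), with a median log2 change of 0.00. Most were bright, 37 of the 42 lying at or above the median level, where 4.89% of all genes were called higher and 4.25% lower. TRIM28, the corepressor that binds the KRAB domain, was at 0.10 ± 0.09 (95% interval -0.12 to 0.31), and SETDB1 was at -0.0014 ± 0.07 (interval -0.17 to 0.17). The histone chaperone gene DAXX fell by 0.43 on the log2 scale (SE 0.07, adjusted p = 0.0143), the retroelement silencing factor gene RESF1 fell by 0.34 (SE 0.07, adjusted p = 0.0428) and the histone methyltransferase gene EHMT1 fell by 0.24 (SE 0.05, adjusted p = 0.0462). The phosphatase gene PPM1D rose by 0.30 ± 0.07 (adjusted p = 0.0428). RESF1, EHMT1 and PPM1D each lost the call when any single array was dropped (adjusted p up to 0.171), and DAXX without DMSO replicate 2 or 3 (up to 0.0663).

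**Figure D4:**
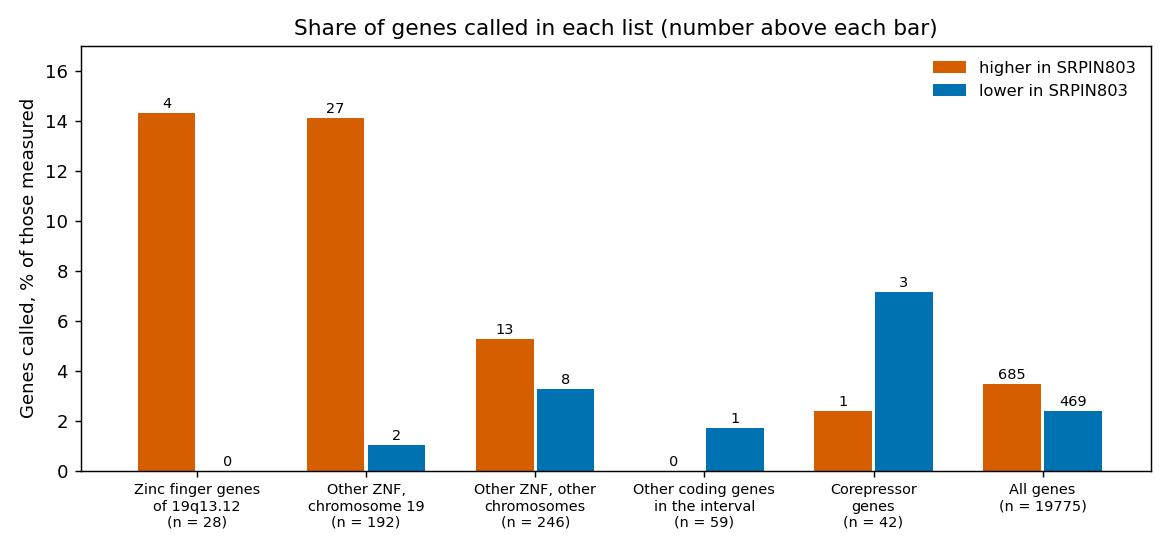
Share of measured genes called higher (orange, left) or lower (blue, right) after SRPIN803 at an adjusted p under 0.05, as a percentage of each list (y axis), with the number of genes above each bar. The zinc finger genes of 19q13.12 (4 of 28 higher) and the other ZNF genes of chromosome 19 (27 of 192 higher) have like shares, above the 3.46% of all genes.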

How the data were processed

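Expression in ARPE-19 cells was measured on Affymetrix 3′ arrays, 3 per group. The authors deposited 1 log2 value per probe set and array; the submitters' processing notes name RMA, with no software or version. RMA normalizes between arrays, which hides a change in total RNA per cell, and compresses changes of dim probe sets. With arrays, the number of samples and not a read depth limits the precision.

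Of 54675 probe sets, 62 were controls. By the platform annotation 41091 named 1 gene, 1801 several and 11721 none here, and 41037 of the first were found in the RefSeq gene table. For each of 19775 genes the brightest probe set was used. SRPIN803 was set against DMSO (groups from the sample titles) in limma (version 3.58.1, R 4.3.3) with lmFit and eBayes and no further term. Two-sided p-values were adjusted by Benjamini-Hochberg across the 19775 genes, and genes under 0.05 were called. With 3 arrays in each group, exact permutation reaches no p under 0.1 and was not used.

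The genes and lists were chosen with earlier results of these data known. Full values are given for called members, the 8 with the smallest p, the 4 brightest, ZNF585A and ZNF585B, and from other lists up to 6 called genes with the largest change, TRIM28 and SETDB1. Coding neighbours came from the order of genes in the RefSeq table. Same-numbered arrays did not deviate together throughout (correlations 0.179, -0.061 and 0.107), so the numbers were not taken as pairs. Protein sequences were not used here.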

Additional observations from a re-analysis of the deposited data

How the results depend on the processing

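The 4 calls rest on 3 arrays per group, with adjusted p between 0.0106 and 0.0486, and no alternative called a zinc finger gene of 19q13.12 lower. Leaving out 1 array at a time gave 0 to 2 of the 28 genes called (2, 1 and 1 without SRPIN803 replicates 1, 2 and 3, and 1, 2 and 0 without DMSO replicates 1, 2 and 3), 324 to 687 of all genes, 19 to 30 of the other ZNF genes, 0 to 1 corepressor genes and 0 to 1 neighbouring genes, with fewer samples in each fit. The median change of the 28 genes then ran between 0.07 and 0.14. It was 0.14 over the 10 genes at or above the median level and 0.07 without _x_at and _s_at probe sets. Of the 28 genes, 2 were called on the mean over each gene's probe sets (ZNF30 and ZNF585A), 2 without _x_at and _s_at probe sets (ZNF345 and ZNF585B) and 2 with all probe sets as rows (ZNF420 and ZNF585B). In the same order, 886, 985 and 723 of all 19775 genes were called, 494, 582 and 418 of them higher. At adjusted p under 0.10 the count was 9 and at 0.01 it was 0 (28 genes), against 1991 and 285 of all genes, 76 and 17 of the other ZNF genes, 2 and 0 neighbours, and 0 corepressor genes at 0.01. With the replicate number as a block, 689 of all genes, 29 of the other ZNF genes, 1 corepressor gene and 0 neighbours were called, and 4 of the 28 genes (ZNF829 in the place of ZNF30). All genes called were 1944 at or above the median level, 1965 with an intensity trend and 723 with all probe sets as rows. Corepressor genes called were 7, 7 and 1 in these fits, and 2 both with the mean of all probe sets and with quantile normalization. Neighbours called were 2, 2 and 0, and other ZNF genes with all probe sets as rows were 33. Changes of sign occurred only in values not called in the main comparison. With 1 array left out they spanned 0 in ZNF345 (-0.10 to 0.04), ZNF527 (-0.11 to 0.01), ZNF529 (-0.01 to 0.06), ZNF570 (-0.06 to 0.16), ZNF585A (-0.0032 to 0.10), ZNF793 (-0.01 to 0.20) and SETDB1 (-0.05 to 0.05). The mean of all probe sets gave 0.14 for ZNF345, 0.10 for ZNF527, -0.08 for ZNF570 and 0.01 for SETDB1, quantile normalization gave 0.0033 for SETDB1, and probe sets without _x_at and _s_at gave 0.31 for ZNF345 and -0.17 for ZNF569. The cause of these shifts was not tested.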
